A study of Mus musculus with 18 samples.

Results

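The effect of a muscle-directed knockout of Site-1 Protease was compared between the gastrocnemius and the soleus over all 18 of the 18 RNA-seq libraries of the study. Every library with a muscle and a genotype in its title was a member, and 18494 genes with enough counts entered one fit. Site-1 Protease (S1P), encoded by Mbtps1, resides in the Golgi and cuts membrane-anchored proteins within their lumenal part. Among the proteins it cuts are the SREBPs, which drive sterol and fatty acid synthesis genes, and ATF6, which drives chaperones of the endoplasmic reticulum. The gastrocnemius of the mouse is built mostly of fast, glycolytic fibres, whereas the soleus is rich in slow, oxidative ones.

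All animals were mice of 12 weeks on chow, fasted for 4 h before the muscles were taken. Controls carried a floxed Site-1 Protease allele, and knockouts carried that floxed allele together with HSA-Cre, a Cre recombinase under the human skeletal actin promoter that is active in skeletal muscle fibres. The groups were 5 control and 4 knockout gastrocnemius libraries and 5 control and 4 knockout soleus libraries. There was no group with Cre alone, so loss of S1P and presence of Cre cannot be told apart. Libraries are named here by muscle, genotype and the number in their title. The labels do not state that the libraries came from separate mice, nor whether both muscles came from the same mice, so p-values measure the spread between these libraries. The genotypes run in the same order along the title numbers of both muscles, and no pairing was assumed from that order.

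Libraries held 39.0 to 78.2 M counts. Myh4, the myosin of the fastest fibres, lay at 75400 to 91600 CPM (counts scaled to 1e+06 per library) in gastrocnemius libraries and at 127 to 5620 CPM in soleus libraries, and Myh7, the slow myosin, averaged 453 CPM in gastrocnemius controls and 9960 CPM in soleus controls, so the markers followed the muscle labels. Soleus control 37 and soleus knockout 42 stood apart with 127 and 223 CPM of Myh4 against at least 1510 CPM in the other soleus libraries, and results were also computed without both. Mbtps1 itself was not lower in the knockouts. In gastrocnemius it averaged 31.5 ± 2.40 CPM (SD, n = 5) in controls and 37.6 ± 3.58 CPM (SD, n = 4) in knockouts, and its log2 fold change was 0.25 (SE 0.07, adjusted p = 0.059) there and 0.09 (SE 0.07, adjusted p = 0.845) in soleus. The count covers the whole gene and the labels do not say which exons are floxed, so these values do not check the genotype.

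The knockout label went with far more called genes in gastrocnemius than in soleus, while the direction of change was mostly common to both muscles. At an adjusted p under 0.05, 660 of 18494 genes (3.57%) were called in gastrocnemius, 320 higher (1.73%) and 340 lower (1.84%) in the knockout. In soleus 28 genes (0.151%) were called, 23 higher (0.124%) and 5 lower (0.027%). The test of the difference between the effects, soleus minus gastrocnemius, called 13 genes (0.0703%), 11 with a positive (0.0595%) and 2 with a negative (0.0108%) difference. A total of 14 genes (0.0757%) were called in both muscles, all with the same sign, and 0 were called with opposite signs. Those 14 are 2.12% of the gastrocnemius calls and 50% of the soleus calls.

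**Figure D1:**
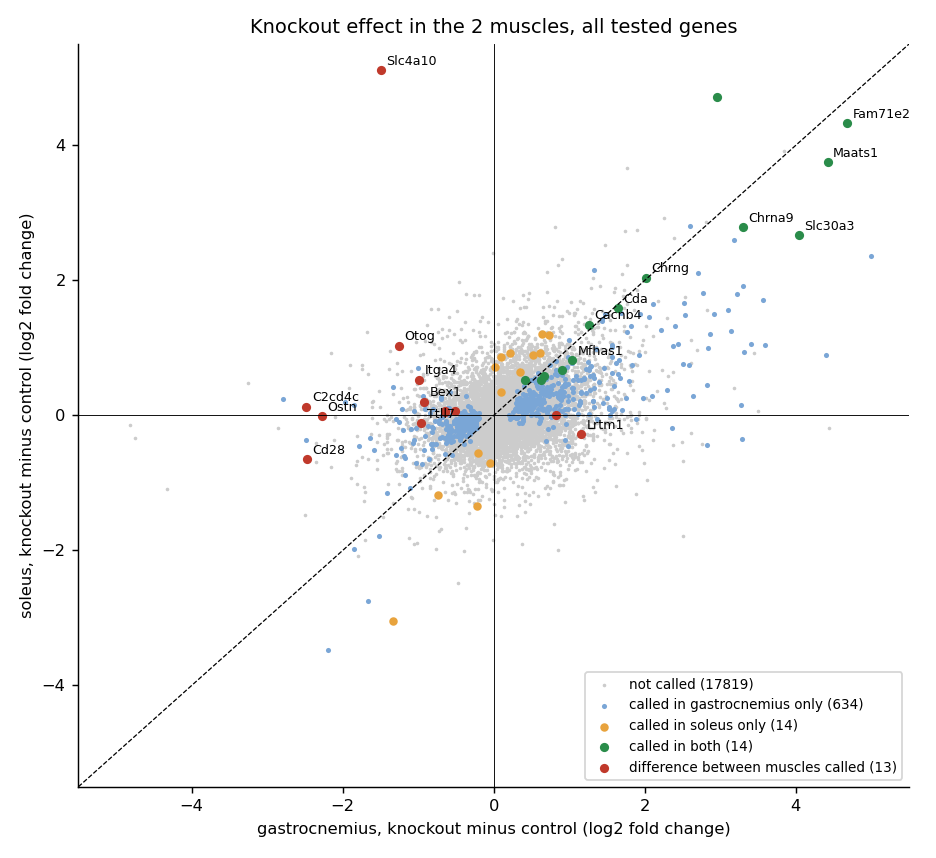
Knockout minus control log2 fold change in gastrocnemius (horizontal) and soleus (vertical) for the tested genes; the dashed line marks equal effects, colours mark the test each gene passed, and genes beyond ±5.5 on either axis, Sox14 among them, lie outside the frame. The green genes called in both muscles lie in the upper right, and the red genes with a called difference lie mostly left of the vertical line and near 0 in soleus.

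Few calls in soleus did not mean that the gastrocnemius genes were flat there. Of the 660 genes called in gastrocnemius, 584 (88.5%) had the same sign in soleus, against 64.3% of all tested genes. The 320 genes higher in gastrocnemius knockouts had a median log2 fold change of 0.81 in gastrocnemius and 0.28 in soleus, and the 340 lower genes had medians of -0.37 and -0.11. Across genes, Pearson's r between the log2 fold changes was 0.41 over the 18494 genes, and 0.76 over the 660. These are descriptions only: genes are not independent replicates, the 660 were picked on their gastrocnemius values, and the muscles share 1 fit and may share mice, though no library. In soleus, 219 of the 660 (33.2%) had an unadjusted p under 0.05, 215 of them with the gastrocnemius sign, against 7.91% of all genes.

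For 646 genes called in gastrocnemius but not in soleus, the 95% interval of the soleus log2 fold change held 0 in 426 and held the gastrocnemius estimate in 138. The latter count takes the gastrocnemius estimate as fixed, without its own error. The difference test called 12 of these 646, so for the other 634 a limit to gastrocnemius was not shown. Fitted on its own 9 libraries, gastrocnemius had a common biological coefficient of variation of 0.165 and soleus one of 0.175. In the joint fit the median SE of a difference was 0.24 on the log2 scale. Of the 18494 genes, 999 (5.4%) had an unadjusted p under 0.05 in the difference test. Knockout and control libraries did not overlap for 1432 genes (7.74%) in gastrocnemius and 481 (2.6%) in soleus. They did not overlap in both muscles in the same direction for 106 genes (0.573%), and in opposite directions for 2 (0.0108%), Otog and 3300002I08Rik, the latter named after its values were seen (difference -1.49, adjusted p = 0.374, at a mean under 1 CPM in each group).

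Cd28 had the smallest p-value of the difference test: it fell in gastrocnemius by 2.47 on the log2 scale and its soleus estimate was -0.65. Cd28 encodes the co-stimulatory receptor of T cells (ENSMUSG00000026012, GRCm38, chromosome 1, 60716800 to 60773359, plus strand). Gastrocnemius controls 1, 3, 4, 5 and 8 held 4.93, 4.12, 4.90, 5.47 and 5.15 CPM of Cd28, and knockouts 2, 6, 7 and 9 held 0.621, 0.730, 1.18 and 1.01 CPM. In soleus, controls 34, 36, 37, 38 and 41 held 2.28, 2.93, 3.37, 2.67 and 3.40 CPM, and knockouts 35, 39, 40 and 42 held 1.90, 2.07, 1.35 and 2.15 CPM. Every knockout library lay below every control library in both muscles, with a far wider gap in gastrocnemius. The difference was 1.82 (SE 0.27, 95% interval 1.30 to 2.34, adjusted p = 0.0133). The soleus change alone was not called (adjusted p = 0.215).
The listed lymphocyte genes moved the other way by estimate. Their summed level over 10 genes was 4.37 to 6.51 CPM in gastrocnemius controls and 9.56 to 12.1 CPM in gastrocnemius knockouts, and 4.16 to 7.31 and 5.43 to 12.7 CPM in soleus, with the T-cell receptor gene Cd3d at 0 in gastrocnemius controls. Of the 5 that were tested, Ptprc, a marker of all leukocytes, rose in gastrocnemius by 0.99 (adjusted p = 0.0407), and Cd3e, of the T-cell receptor complex, stood at 0.82 (adjusted p = 0.476). The part of these cells in the Cd28 result was not tested. In whole muscle, fewer cells of a type and less RNA per cell cannot be told apart.

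Lrtm1, which encodes a leucine-rich repeat membrane protein (chromosome 14, 29018208 to 29033642, plus strand), showed the reverse pattern. It rose in gastrocnemius by 1.16 (SE 0.14) on the log2 scale, and its soleus value was -0.28 (SE 0.14), not called. Gastrocnemius controls held 44.3, 29.5, 27.6, 34.3 and 28.4 CPM and knockouts 57.6, 78.6, 85.7 and 71.3 CPM. Soleus controls held 66.6, 61.3, 51.3, 57.0 and 54.1 CPM of Lrtm1 and knockouts 56.6, 50.5, 37.2 and 47.5 CPM. The gastrocnemius groups did not overlap, and the gastrocnemius knockouts reached or passed the level of the soleus controls, while the soleus groups overlapped. The difference was -1.44 (SE 0.21, 95% interval -1.84 to -1.03, adjusted p = 0.0146).
Cd28 and Lrtm1 were the only genes of the 13 whose difference stayed called when each of the 18 libraries was left out in turn, with adjusted p up to 0.0451 for both. With soleus control 37 and soleus knockout 42 both left out, Lrtm1 had an adjusted p of 0.0501.

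Xpr1 and Cbfb fell in gastrocnemius, with soleus estimates near 0. Xpr1 encodes the cell's phosphate exporter (chromosome 1, 155275701 to 155417415, minus strand). Gastrocnemius controls held 209, 162, 184, 180 and 180 CPM of Xpr1 and knockouts 125, 114, 101 and 128 CPM. Soleus controls held 55.2, 58.6, 55.2, 62.3 and 63.0 CPM and knockouts 56.1, 64.4, 59.7 and 63.1 CPM. The gastrocnemius groups were apart by more than their spread, and the soleus groups were mixed. The log2 fold changes were -0.64 (SE 0.08) and 0.05 (SE 0.08), and the difference was 0.69 (SE 0.11, adjusted p = 0.0186).
Cbfb encodes the beta subunit that Runx transcription factors bind as a partner (chromosome 8, 105170674 to 105217989, plus strand). Gastrocnemius controls held 113, 96.8, 101, 111 and 121 CPM of Cbfb and knockouts 69.5, 70.5, 67.3 and 71.5 CPM. Soleus controls held 22.7, 23.0, 22.9, 22.5 and 22.7 CPM and knockouts 19.2, 26.1, 26.6 and 22.8 CPM. The difference was 0.70 (SE 0.11, adjusted p = 0.0186), from -0.64 in gastrocnemius and 0.06 in soleus. The Xpr1 call was lost without gastrocnemius knockout 6, soleus control 37 or soleus knockout 39 (adjusted p 0.0507 to 0.0533). The Cbfb call was lost in 6 of the 18 leave-outs (adjusted p 0.0507 to 0.0539).

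**Figure D2:**
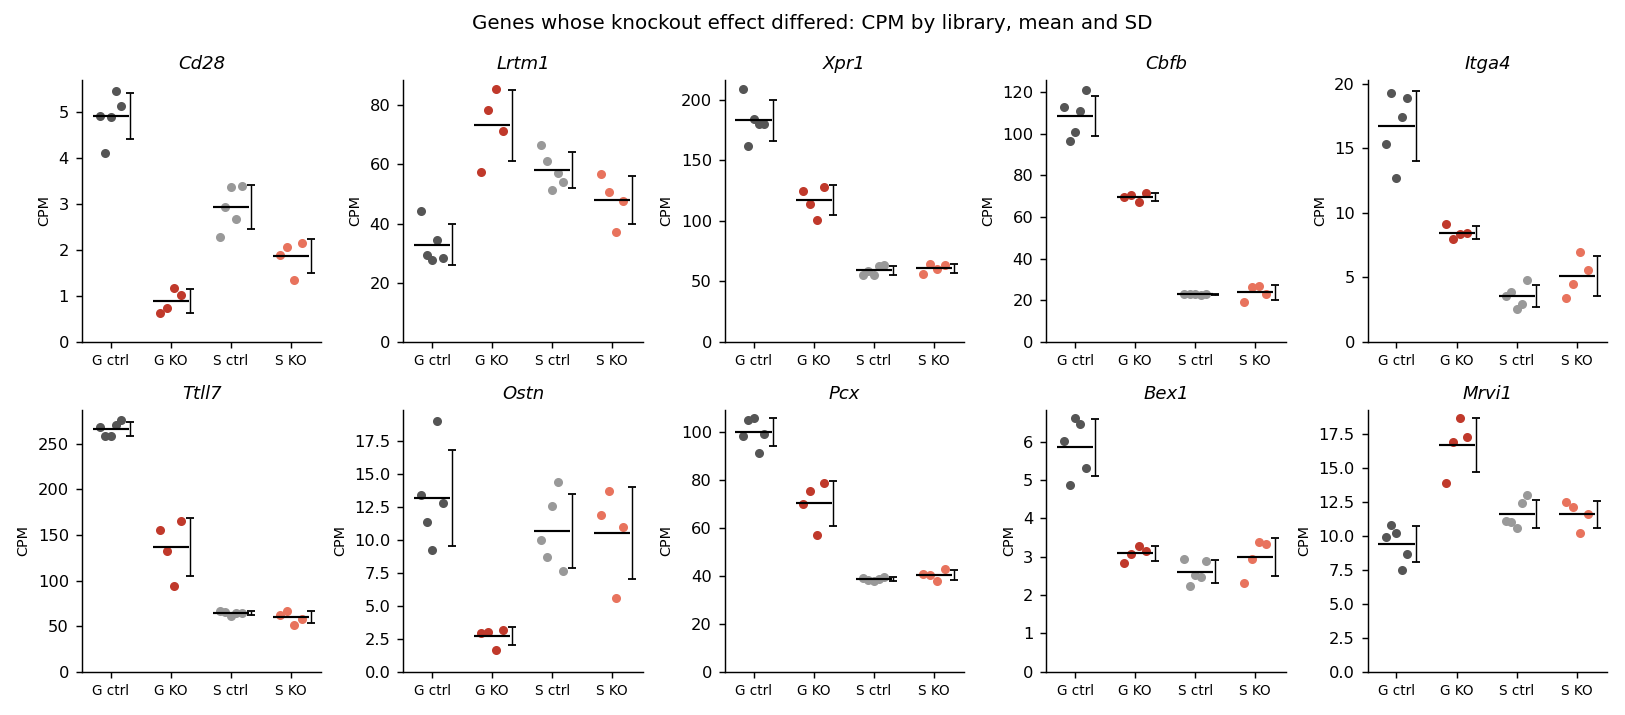
CPM by library of 10 genes with a called difference between the muscles, in gastrocnemius (G) and soleus (S) control (ctrl) and knockout (KO) libraries; points are libraries, lines are means and bars are ± SD. Knockout points lie apart from control points in gastrocnemius for each of the 10 genes, and in soleus they are mixed with or close to the controls, Cd28 being separate in both.

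In Itga4 and Otog the soleus estimate pointed the other way. Itga4 encodes the alpha-4 integrin subunit (chromosome 2, 79255426 to 79333123, plus strand). Gastrocnemius controls held 15.3, 19.3, 12.7, 17.4 and 18.9 CPM of Itga4 and knockouts 9.11, 7.93, 8.31 and 8.45 CPM. Soleus controls held 3.56, 3.83, 2.54, 2.95 and 4.75 CPM and knockouts 3.37, 4.45, 6.98 and 5.52 CPM. Groups were separate in gastrocnemius (log2 fold change -0.99, SE 0.18, adjusted p = 0.00517) and overlapped in soleus (0.53, SE 0.19, not called). The difference was 1.51 (SE 0.26, adjusted p = 0.0330).
Otog encodes otogelin, a protein of the membranes that overlie the sensory cells of the inner ear (chromosome 7, 46240987 to 46311434, plus strand). Its gastrocnemius controls held 2.62, 2.03, 2.63, 2.34 and 2.20 CPM and knockouts 1.66, 1.13, 0.690 and 0.513 CPM. Soleus controls held 0.259, 0.222, 0.280, 0.321 and 0.282 CPM of Otog and knockouts 0.545, 0.735, 0.621 and 0.324 CPM. Knockouts were below controls in gastrocnemius and above them in soleus, by a narrow margin for soleus knockout 42. The Otog difference was 2.28 (SE 0.42, adjusted p = 0.0344), and the soleus rise of 1.03 was not called alone.

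Ostn, Pcx and Ttll7 fell in gastrocnemius, and their soleus estimates were -0.01, 0.06 and -0.12. Ostn encodes musclin, a peptide secreted by muscle that binds the clearance receptor of natriuretic peptides (chromosome 16, 27307489 to 27351212, plus strand). Gastrocnemius controls held 13.4, 11.4, 9.27, 19.0 and 12.8 CPM of Ostn and knockouts 2.97, 3.04, 1.65 and 3.19 CPM. Soleus controls held 9.98, 8.71, 12.6, 14.4 and 7.64 CPM and knockouts 11.9, 13.7, 5.57 and 11 CPM. The gastrocnemius knockouts were all below every other library of the study, and the soleus groups were mixed. The log2 fold changes were -2.27 (SE 0.30) and -0.01 (SE 0.26), and the difference was 2.26 (SE 0.39, adjusted p = 0.0380).
Pcx encodes pyruvate carboxylase, which makes oxaloacetate from pyruvate (chromosome 19, 4510472 to 4621752, plus strand). It averaged 100 ± 5.88 CPM (SD, n = 5) in gastrocnemius controls and 70.4 ± 9.48 (SD, n = 4) in knockouts, and 38.8 ± 0.719 and 40.5 ± 2.13 CPM in soleus. The Pcx difference was 0.57 (SE 0.11, adjusted p = 0.0380). Ttll7 encodes an enzyme that adds glutamate chains to tubulin (chromosome 3, 146852367 to 146984009, plus strand). It averaged 267 ± 7.38 and 137 ± 31.5 CPM in gastrocnemius and 64.8 ± 2.24 and 59.7 ± 6.47 CPM in soleus, with a difference of 0.85 (SE 0.15, adjusted p = 0.0344).

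The other 4 called differences were in Mrvi1, Bex1, C2cd4c and Slc4a10. Mrvi1, also named IRAG, encodes a target of cGMP-dependent protein kinase that acts on the inositol trisphosphate receptor (chromosome 7, 110868266 to 110982461, minus strand). It rose in gastrocnemius by 0.83 (SE 0.11) and stood at 0.00 (SE 0.11) in soleus, a difference of -0.83 (adjusted p = 0.0344). Bex1, an X-linked gene also expressed in brain (136213972 to 136215513, minus strand), fell by 0.92 in gastrocnemius and stood at 0.20 in soleus (difference 1.12, adjusted p = 0.0294). It is overlapped by Tceal7 on the opposite strand, which averaged 404 counts against 183 for Bex1, and the sources used here do not give the strand setting of the counting.
C2cd4c, Otog and Slc4a10 were below the level set for naming and were named after their values were seen. C2cd4c held 1.38 to 1.65 CPM in gastrocnemius controls and 0.152 to 0.377 CPM in knockouts, against 0.0933 to 0.194 and 0.121 to 0.180 CPM in soleus (difference 2.61, SE 0.45, adjusted p = 0.0294). Slc4a10, a sodium-dependent bicarbonate transporter, held 1.03 to 1.34 CPM in gastrocnemius controls and 0.282 to 0.621 CPM in knockouts. In soleus it had 0 counts over the controls and 19 over the knockouts, at least 8.73-fold higher with a floor of 3 counts over the group, and its difference had an adjusted p of 0.0344.

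Of the 13 genes, 11 were higher in gastrocnemius controls than in soleus controls, and Lrtm1 and Mrvi1 were lower there. The comparison of levels shares its control libraries with the difference, so the levels are given as a description only. Calls other than those of Cd28 and Lrtm1 were lost in 3 (Xpr1) to 17 (Ostn) of the 18 leave-outs. The number of called differences was 3 without gastrocnemius control 1, control 5 or knockout 6, and likewise without soleus control 38 or knockout 39. It was 6, 5 and 8 without gastrocnemius controls 3, 4 and 8, and 6, 4, 2 and 7 without soleus controls 34, 36, 37 and 41. It rose to 23 without gastrocnemius knockout 2 and 21 without soleus knockout 42. With soleus control 37 and soleus knockout 42 both left out it was 2, of which 1 was among the 13.

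The genes called in both muscles were led by Sox14, a transcription factor of the developing nervous system (ENSMUSG00000053747, chromosome 9, 99874106 to 99876170, minus strand). Gastrocnemius controls held 0 counts of Sox14 in each of the 5 libraries, and knockouts held 5.36, 6.43, 7.72 and 6.23 CPM, 1147 counts in all. Setting the control group as a whole to 3 counts, Sox14 was 431-fold higher in gastrocnemius knockouts. The exact 95% counting interval of the gastrocnemius ratio began at 350. Soleus controls held 1 count in all, in control 34, and knockouts held 2.18, 3.79, 4.61 and 3.08 CPM, 816 counts in all. The soleus ratio was 1130, with an exact 95% counting interval of 201 to 44500 that covers counting error only. Sox14 was near absent from the control libraries and present in each of the 4 gastrocnemius and 4 soleus knockout libraries. The adjusted p was 3.85e-10 in gastrocnemius and 8.73e-10 in soleus, and the difference was not called (adjusted p = 0.991).

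The other genes called in both muscles and without overlap of the groups changed by similar amounts. Mfhas1, a leucine-rich repeat protein gene (chromosome 8, 35587798 to 35679449, plus strand), held 7.16, 8.51, 8.47, 6.93 and 5.97 CPM in gastrocnemius controls and 18.3, 14.2, 13.1 and 15.4 CPM in knockouts. Its soleus controls held 10.1, 11.1, 10.9, 10.9 and 10.2 CPM and knockouts 21.0, 16.5, 19.4 and 18.1 CPM. The rises were 1.04 (SE 0.11) and 0.82 (SE 0.11), with a 95% interval of the difference from -0.52 to 0.08.
Tiam1 encodes an exchange factor that activates the GTPase Rac (chromosome 16, 89787111 to 89980080, minus strand). It held 11.2, 12.5, 15.8, 12.7 and 15.6 CPM in gastrocnemius controls and 26.7, 26.2, 24.0 and 24.0 CPM in knockouts. Soleus controls held 6.61, 6.29, 5.95, 7.77 and 4.95 CPM of Tiam1 and knockouts 9.66, 9.76, 9.78 and 10.8 CPM. Controls and knockouts were separate in both muscles, around a lower level in soleus. The rises were 0.90 (SE 0.11) and 0.67 (SE 0.11), and the 95% interval of the Tiam1 difference was -0.54 to 0.08.

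Ank2 encodes ankyrin-B, an adaptor that ties membrane proteins to the spectrin skeleton (chromosome 3, 126921606 to 127499259, minus strand). It held 90.6, 99.9, 98.7, 89.0 and 100 CPM in gastrocnemius controls and 128, 136, 122 and 124 CPM in knockouts. Soleus controls held 111, 131, 120, 114 and 124 CPM of Ank2 and knockouts 187, 180, 156 and 167 CPM. It rose by 0.41 (SE 0.07, adjusted p = 0.00172) in gastrocnemius and 0.53 (SE 0.07, adjusted p = 0.000516) in soleus. Tspan13, a tetraspanin, rose by 0.66 and 0.59, and Ehd4, an ATPase of endosomal recycling, rose by 0.62 and 0.52. The 95% intervals of the differences were -0.08 to 0.30 for Ank2, -0.36 to 0.21 for Tspan13 and -0.36 to 0.16 for Ehd4.

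**Figure D3:**
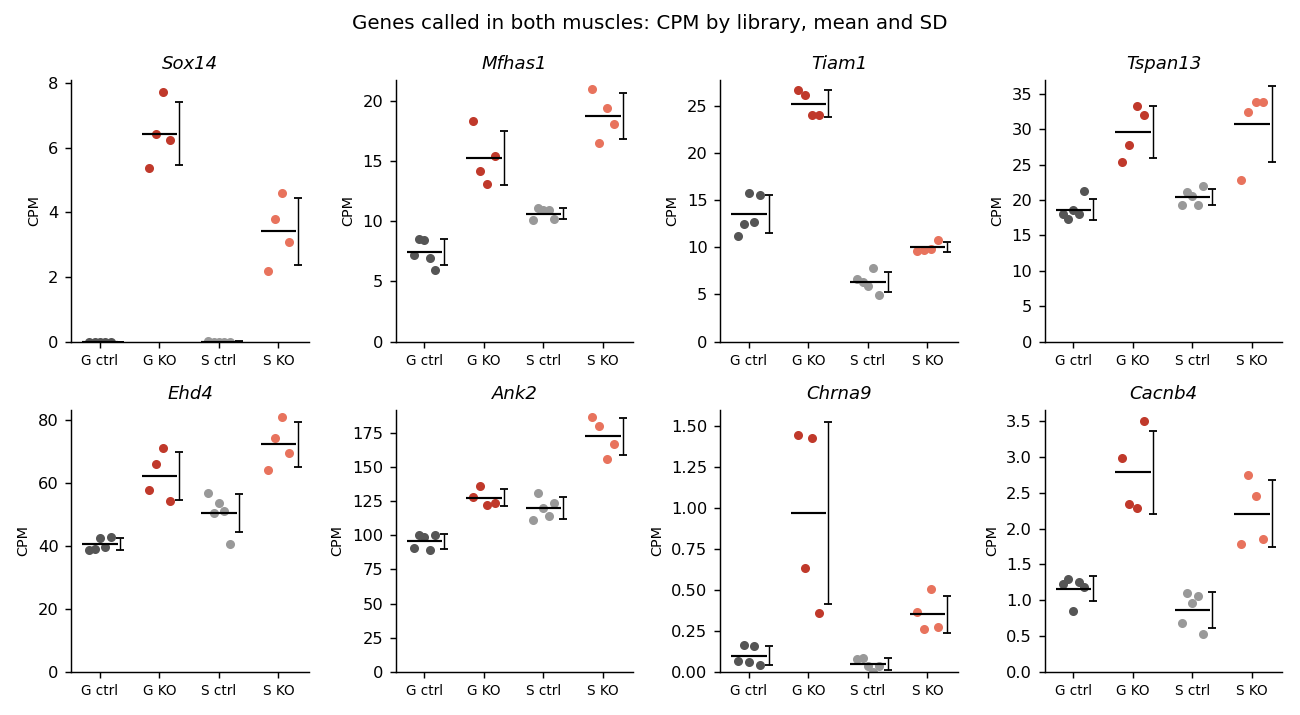
CPM by library of 8 genes called in both muscles, in gastrocnemius (G) and soleus (S) control (ctrl) and knockout (KO) libraries; points are libraries, lines are means and bars are ± SD. In every panel the knockout points lie above the control points of the same muscle, and Chrna9 reaches 0.361 to 1.45 CPM in gastrocnemius knockouts and 0.264 to 0.508 CPM in soleus knockouts.

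Other genes called in both muscles were named after their values were seen. Cacnb4, a beta subunit of voltage-gated calcium channels, rose by 1.26 and 1.34, and Cda, cytidine deaminase, by 1.64 and 1.59. Slc30a3, a zinc transporter of vesicles, rose by 4.04 and 2.67 and is overlapped by Dnajc5g on the opposite strand. Maats1 rose by 4.42 and 3.75. Fam71e2 had 1 count over the gastrocnemius controls and 32 over the knockouts, a ratio of 36 with a 95% counting interval of 6.02 to 1470. Both calls were kept in all 18 leave-outs by Sox14, Mfhas1, Tiam1, Ank2, Cacnb4 and Maats1, among the genes named here. The soleus calls of Tiam1 and Cacnb4 were lost when soleus was fitted on its own 9 libraries (adjusted p = 0.083 for each). That of Tiam1 was also lost without both soleus control 37 and soleus knockout 42 (adjusted p = 0.12). The soleus calls of Ehd4, Tspan13, Fam71e2, Cda and Slc30a3 were lost in 2, 3, 4, 6 and 6 of the 18 leave-outs. The fit of soleus on its own also lost those of Ehd4, Tspan13, Cda and Slc30a3 (adjusted p 0.0723 to 0.125). The number called in both muscles was 8, 9 and 9 without soleus control 34, control 36 and knockout 40, and 30, 34 and 30 without gastrocnemius knockout 2, soleus knockout 35 and soleus knockout 39. Without both soleus control 37 and soleus knockout 42 it was 7.

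Genes of the muscle acetylcholine receptor and its synapse were shared in part. In innervated adult fibres the receptor is confined to the junction and carries the epsilon subunit, and fibres that lose their nerve return to the embryonic gamma subunit and express receptor genes along the fibre. Chrng, the gamma subunit (chromosome 1, 87204657 to 87212694, plus strand), held 0.237, 0.428, 0.413, 0.425 and 0.302 CPM in gastrocnemius controls and 1.08, 1.46, 2.37 and 0.912 CPM in knockouts. Soleus controls held 0.227, 0.513, 0.373, 0.321 and 0.370 CPM of Chrng and knockouts 1.25, 0.680, 2.67 and 1.43 CPM. Control and knockout levels were alike in the muscles, and the groups did not overlap in either. The Chrng rises were 2.01 (SE 0.37, adjusted p = 0.00396) and 2.04 (SE 0.35, adjusted p = 0.0148), and the difference was 0.03 (SE 0.52, adjusted p = 1.0). The soleus call was lost without soleus control 34 (adjusted p = 0.0507) or soleus knockout 40 (adjusted p = 0.101), and at an adjusted p of 0.0761 without both soleus control 37 and soleus knockout 42. Limma voom (adjusted p = 0.0616) and the fit of soleus on its own 9 libraries (adjusted p = 0.083) lost it too. Chrna9, an alpha subunit better known from hair cells, rose by 3.30 and 2.79, and its soleus call was lost in 10 of the 18 leave-outs (adjusted p 0.0534 to 0.200).

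Chrna1, the alpha subunit of the muscle receptor (chromosome 2, 73563215 to 73580338, minus strand), was called in gastrocnemius alone. Gastrocnemius controls held 11.2, 9.56, 10.7, 11.7 and 13.3 CPM of Chrna1 and knockouts 24.6, 25.4, 43.0 and 20.1 CPM. Soleus controls held 24.5, 23.1, 22.7, 26.3 and 25.5 CPM and knockouts 24.4, 26.5, 34.2 and 28.8 CPM. From a lower control level, the gastrocnemius knockouts came within or above the range of the soleus controls, except knockout 9, which lay below it. The Chrna1 log2 fold changes were 1.32 (SE 0.17, adjusted p = 0.000301) and 0.22 (SE 0.16, not called), and the difference of -1.10 (95% interval -1.56 to -0.65) was not called (adjusted p = 0.133). It was called without gastrocnemius knockout 9 (adjusted p = 0.0230) and by DESeq2 (adjusted p = 0.00443). It was not called by limma voom (adjusted p = 0.143) or without both soleus control 37 and soleus knockout 42 (adjusted p = 0.239). Musk, the kinase that organises the synapse (chromosome 4, 58285960 to 58374303, plus strand), held 68.6, 96.5, 94.4, 77.0 and 84.0 CPM in gastrocnemius controls and 55.6, 41.9, 38.1 and 47.7 CPM in knockouts. It held 80.7, 87.9, 59.5, 66.6 and 67.8 CPM in soleus controls and 86.2, 56.1, 54.9 and 64.0 CPM in knockouts. Musk fell by 0.87 (SE 0.15) in gastrocnemius and showed -0.15 (SE 0.15) in soleus, and the difference of 0.72 was not called (adjusted p = 0.512).

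The promoters of these receptor and synapse genes are shown because the genes belong to 1 system and split into those called in both muscles (Chrng, Chrna9) and in gastrocnemius only (Chrna1, Musk). Each window runs from 250 bases before to 50 bases after the RefSeq start, 5′ to 3′ on the gene's strand, in the RefSeq table's build GRCm38.p6. The windows are chr1:87205561-87205860 (plus) for Chrng, chr5:65966874-65967173 (plus) for Chrna9, chr2:73580289-73580588 (minus) for Chrna1 and chr4:58285712-58286011 (plus) for Musk. The Chrng and Chrna9 windows lie inside the spans counted for these genes, which begin at 87204657 and 65934921. For Chrng and Chrna9 the RefSeq start is therefore not the first base of the counted gene. Capitals mark CAGCTG, a form of the E-box to which myogenic factors are known to bind; it reads the same on both strands.
Chrng: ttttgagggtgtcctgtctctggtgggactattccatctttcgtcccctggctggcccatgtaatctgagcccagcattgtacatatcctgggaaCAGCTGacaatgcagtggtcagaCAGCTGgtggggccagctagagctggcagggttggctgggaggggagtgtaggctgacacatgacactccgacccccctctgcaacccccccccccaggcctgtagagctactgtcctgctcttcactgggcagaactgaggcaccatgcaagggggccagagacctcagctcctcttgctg
Chrna9: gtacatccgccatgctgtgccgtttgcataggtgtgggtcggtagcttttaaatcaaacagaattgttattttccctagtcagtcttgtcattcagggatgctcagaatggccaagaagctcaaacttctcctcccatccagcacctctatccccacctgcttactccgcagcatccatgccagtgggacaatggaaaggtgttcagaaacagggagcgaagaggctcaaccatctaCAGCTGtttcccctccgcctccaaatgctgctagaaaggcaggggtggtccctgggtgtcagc
Chrna1: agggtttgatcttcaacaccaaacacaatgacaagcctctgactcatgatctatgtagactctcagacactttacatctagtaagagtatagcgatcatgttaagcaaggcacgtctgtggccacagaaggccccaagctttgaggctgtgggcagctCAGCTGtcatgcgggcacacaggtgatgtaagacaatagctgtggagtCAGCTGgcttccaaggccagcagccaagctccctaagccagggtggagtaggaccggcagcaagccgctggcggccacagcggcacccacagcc
Musk: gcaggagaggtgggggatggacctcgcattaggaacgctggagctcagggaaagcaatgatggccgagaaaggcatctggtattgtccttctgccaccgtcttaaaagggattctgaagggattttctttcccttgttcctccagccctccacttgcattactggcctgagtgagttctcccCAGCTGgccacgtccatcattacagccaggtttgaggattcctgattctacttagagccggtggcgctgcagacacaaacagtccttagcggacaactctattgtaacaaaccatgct
Chrng and Chrna1 held 2 matches and Chrna9 and Musk held 1. Of 32851 promoter windows of the same length in the RefSeq table, 16.3% held the motif and 1.9% held it 2 or more times. All 4 genes were picked with results known, and a match is a description of the letters, not of a bound site.

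The 25 tested genes of the denervation and regeneration list had a median log2 fold change of 0.64 in gastrocnemius and 0.50 in soleus, against 0.03 and -0.01 over all tested genes. In gastrocnemius 6 rose (Sln, Chrna1, Myf5, Actc1, Chrnb1, Chrng) and 4 fell (Musk, Scn4a, Cdh15, Dach2), where 1.73% of all tested genes were called higher and 1.84% lower. In soleus 1 rose, Chrng, and the other 24 were not called, against 0.151% called of all genes. The difference test called 0 of 25 by edgeR, with 4 at an unadjusted p under 0.05, against 5.4% of all genes. The estimates had the same sign in both muscles for 23 of 25. Dach2, a corepressor, fell by 1.85 in gastrocnemius and stood at -1.98 (adjusted p = 0.0581) in soleus, and Runx1 stood at 1.15 and 1.08, uncalled in both. Without gastrocnemius knockout 7 the list's gastrocnemius median was 0.33, and without soleus knockout 40 its soleus median was 0.34.

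Sln encodes sarcolipin, a small inhibitor of the calcium pump of the sarcoplasmic reticulum (chromosome 9, 53850251 to 53853844, plus strand). Gastrocnemius controls held 0.366, 0.509, 0.472, 0.744 and 0.474 CPM of Sln and knockouts 4.97, 8.33, 24.4 and 5.64 CPM. Soleus controls held 9.93, 17.6, 17.4, 18.7 and 16.1 CPM and knockouts 18.9, 28.9, 39.0 and 31.7 CPM. Groups were separate in both muscles, widely in gastrocnemius and only just in soleus, where the lowest knockout and the highest control nearly met. The Sln log2 fold changes were 4.40 (SE 0.51, adjusted p = 0.000438) and 0.89 (SE 0.38, adjusted p = 0.547). The difference of -3.51 (95% interval -4.79 to -2.23) missed the threshold (adjusted p = 0.0847). It was called by DESeq2 (adjusted p = 1.18e-05) and without gastrocnemius knockout 2, 7 or 9 (adjusted p 0.0213 to 0.0444). It was not called by limma voom (adjusted p = 0.464) or without both soleus control 37 and soleus knockout 42 (adjusted p = 0.191). Actc1, the cardiac actin that fibres express in development and regeneration, held 97.2, 291, 98.8, 160 and 102 CPM in gastrocnemius controls and 616, 1110, 951 and 792 CPM in knockouts. In soleus it held 9.19 to 14.2 CPM in controls and 10.8, 15.4, 84.3 and 12.4 CPM in knockouts, so that 1 library carried the soleus mean. Its log2 fold changes were 2.53 (adjusted p = 0.0223) and 1.48 (adjusted p = 0.456), and the difference of -1.05 was not called. The gastrocnemius call of Actc1 was lost in 6 of the 18 leave-outs, without controls 1, 4, 5 or 8 or knockouts 6 or 7 (adjusted p 0.0560 to 0.0634). Of 19 tested genes of calcium handling in the sarcoplasmic reticulum, 1 rose (Sln) and 2 fell (Mrln, by 0.63, and Jph1, by 0.29) in gastrocnemius, and 0 were called in soleus or by the difference test in edgeR, with 4 differences at an unadjusted p under 0.05. The shares over all tested genes were 3.57% called in gastrocnemius and 5.4% with a difference at an unadjusted p under 0.05.

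**Figure D4:**
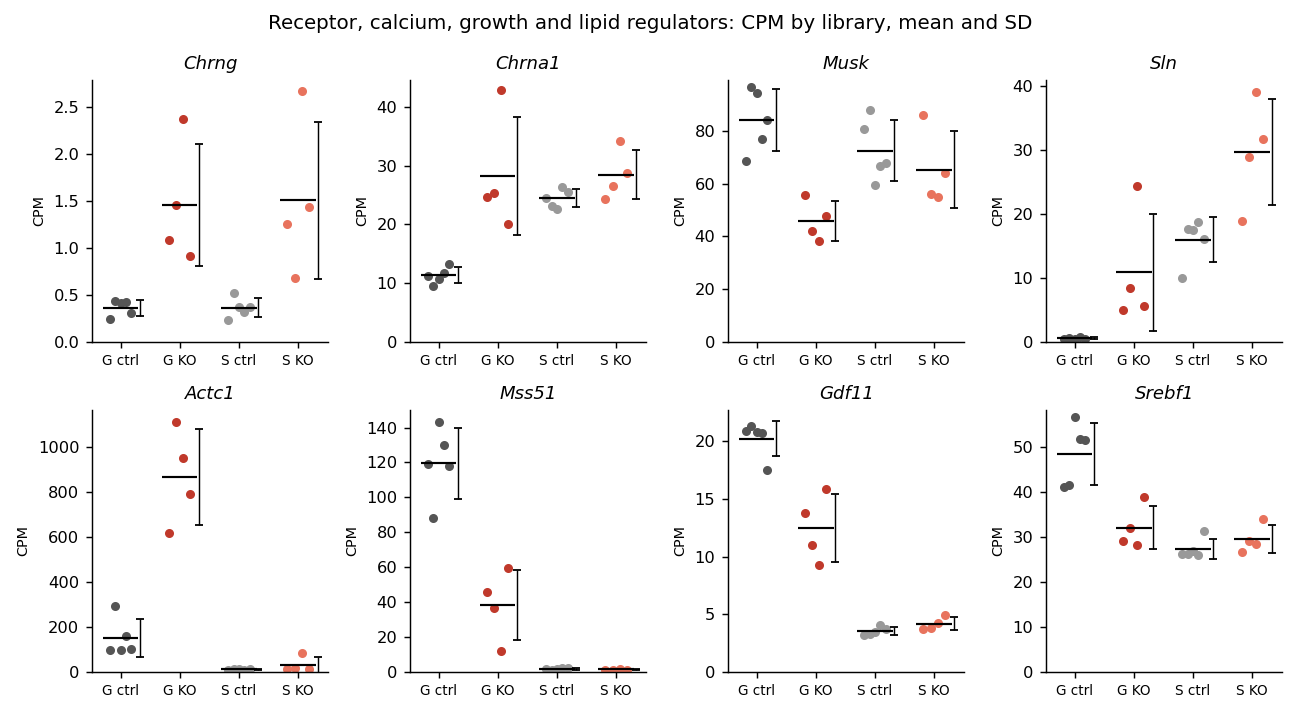
CPM by library of 8 genes of the acetylcholine receptor and synapse, calcium handling, the sarcomere, growth and lipid control, in gastrocnemius (G) and soleus (S) control (ctrl) and knockout (KO) libraries; points are libraries, lines are means and bars are ± SD. Chrng has the same pattern in both muscles, whereas Chrna1, Musk, Gdf11 and Srebf1 separate by genotype in gastrocnemius and overlap in soleus.

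Gdf11 and Srebf1 lay near the threshold of the difference test, whereas Mstn and Mss51 did not. Gdf11, a ligand related to myostatin, held 20.9, 21.3, 20.8, 20.7 and 17.5 CPM in gastrocnemius controls and 13.8, 11, 9.27 and 15.9 CPM in knockouts. In soleus it held 3.21, 3.25, 3.46, 4.08 and 3.70 CPM in controls and 3.71, 3.82, 4.21 and 4.96 CPM in knockouts. It fell by 0.70 (SE 0.13, adjusted p = 0.00370) in gastrocnemius, and the soleus estimate was 0.24 (SE 0.13). The Gdf11 difference of 0.94 (95% interval 0.58 to 1.30) had an adjusted p of 0.0517. It was called by RLE scaling, by DESeq2 and without the low-count filter (adjusted p 0.0336, 0.00114 and 0.0123). It was not called by limma voom (adjusted p = 0.143) or without both soleus control 37 and soleus knockout 42 (adjusted p = 0.182). Mstn, myostatin itself, averaged 86.1 ± 13.1 and 41.5 ± 9.49 CPM in gastrocnemius and 1.04 ± 0.421 and 1.13 ± 0.658 CPM in soleus. Its log2 fold changes of -1.05 (adjusted p = 0.0937) and 0.17, and their difference of 1.22 (adjusted p = 0.907), were not called. Mss51, a mitochondrial gene that myostatin is known to regulate, held 119, 87.9, 143, 130 and 118 CPM in gastrocnemius controls and 45.7, 36.3, 11.8 and 59.3 CPM in knockouts, and 1.74 ± 0.508 and 1.36 ± 0.326 CPM (SD) in soleus. It fell by 1.64 in gastrocnemius (adjusted p = 0.0158), and the difference of 1.30 was not called (95% interval 0.25 to 2.35, adjusted p = 0.861). The gastrocnemius call of Mss51 was lost without gastrocnemius knockout 6 (adjusted p = 0.0538) and when the muscle was fitted on its own 9 libraries (adjusted p = 0.0892). Of 36 tested genes of TGF-beta, activin and BMP signalling, 1 rose (Tgfb1, by 0.55) and 1 fell (Gdf11) in gastrocnemius, 0 were called in soleus, and 0 by the difference test in edgeR, with 4 at an unadjusted p under 0.05. Over all tested genes 3.57% were called in gastrocnemius and 5.4% had a difference at an unadjusted p under 0.05, so the count of TGF-beta genes called is near the background.

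Srebf1 encodes SREBP1, a substrate of S1P (chromosome 11, 60199089 to 60222581, minus strand). Gastrocnemius controls held 41.1, 41.5, 56.7, 51.8 and 51.6 CPM of Srebf1 and knockouts 29.2, 32, 28.3 and 38.9 CPM. Soleus controls held 26.2, 26.2, 26.8, 26.1 and 31.3 CPM and knockouts 26.6, 29.1, 28.5 and 34.0 CPM. It fell by 0.59 (SE 0.11, adjusted p = 0.00337) to about the soleus level in gastrocnemius, and the soleus estimate was 0.11 (SE 0.11). The Srebf1 difference of 0.71 was not called (adjusted p = 0.0982). It was called by DESeq2 (adjusted p = 0.00920), without the low-count filter (adjusted p = 0.0442) and without gastrocnemius knockout 9 (adjusted p = 0.0241). It was not called by limma voom (adjusted p = 0.143) or without both soleus control 37 and soleus knockout 42 (adjusted p = 0.269). Srebf1 is overlapped by Rai1 on the opposite strand, with a mean of 2790 counts against 1750. Target lists of the factors that S1P releases had medians near 0 in both muscles, while their summed levels, which the most abundant members dominate, were lower in part in gastrocnemius knockouts. The medians were 0.01 and -0.01 for 24 cholesterol synthesis genes, 0.01 and -0.04 for 18 fatty acid synthesis genes and -0.02 and -0.07 for 23 chaperone and folding genes. The summed fatty acid synthesis genes held 1170 to 1220 CPM in gastrocnemius controls and 979 to 1110 CPM in knockouts, which did not overlap, and 1170 to 1380 and 1050 to 1240 CPM in soleus, which did. The summed cholesterol synthesis genes held 631 to 697 and 537 to 645 CPM in gastrocnemius and 433 to 560 and 384 to 591 CPM in soleus, overlapping in both. The sums were not tested. Among these 3 lists 1 gene was called in gastrocnemius, Me1 (malic enzyme, -0.47), and 0 in soleus or by the difference test in edgeR, with 3 differences at an unadjusted p under 0.05. Over all tested genes 3.57% were called in gastrocnemius and 0.151% in soleus, and 5.4% had a difference at an unadjusted p under 0.05.

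Slow-fibre genes had like medians in both muscles, and the medians of fast-fibre genes had opposite signs. The 16 slow-fibre genes had medians of -0.29 in gastrocnemius and -0.28 in soleus, and 14 had the same sign in both. In gastrocnemius 2 fell (Myl2 and Myl3, slow myosin light chains) and 1 rose (Casq2, a calsequestrin, by 0.86), and 0 were called in soleus, against 3.57% and 0.151% of all tested genes. Myl2 fell by 0.95 (SE 0.16, adjusted p = 0.00258) in gastrocnemius and stood at -0.72 (SE 0.15, adjusted p = 0.0643) in soleus, where controls held 1160 to 1500 CPM and knockouts 886, 869, 568 and 852 CPM. Every Myl2 knockout library lay below every control library of its muscle. The 18 fast-fibre genes had medians of -0.14 and 0.20, and the difference estimate was positive for 18 of 18, against 8320 of 18494 genes. The difference test called 0 of them by edgeR, with 5 at an unadjusted p under 0.05 against 5.4% of all genes, and 1 gene was called in a muscle, Mylk2 (myosin light chain kinase 2), which fell by 0.62 in gastrocnemius. The summed level of the list was 41500 to 48800 CPM in soleus controls and 37900 to 52100 CPM in soleus knockouts, and the low Myh4 libraries, control 37 and knockout 42, were the lowest of their groups; their part in the list's median was not tested. Without soleus knockout 40 the soleus median of the list was 0.09. Its median difference ranged from 0.22 to 0.42 over the 18 leave-outs and from 0.27 to 0.33 over the other scalings and tools.

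The 13 mitochondrially encoded mRNAs had a median of -0.07 in gastrocnemius and 0.14 in soleus. The estimate was positive for 1 of 13 in gastrocnemius and 13 of 13 in soleus, against 10117 and 8941 of 18494 tested genes. In either muscle 0 were called, against 3.57% of all tested genes in gastrocnemius and 0.151% in soleus. The difference test called 0 by edgeR, with 5 at an unadjusted p under 0.05 against 5.4% of all tested genes. The smallest p was that of mt-Nd4, a subunit of complex I, at -0.10 and 0.21. These 13 are cut from common precursor transcripts, so they are not independent of each other. Their summed level was 85100 to 94800 CPM in soleus controls and 89400 to 119000 CPM in knockouts, with soleus knockout 39 the highest. Without soleus knockout 39 the soleus median was 0.05 and the median difference 0.13, against 0.25 with it. The 74 nuclear-encoded genes of oxidative phosphorylation had medians of -0.09 and -0.03, with 0 called in either muscle or by the difference test in edgeR. They had 0 differences at an unadjusted p under 0.05, against 5.4% of all tested genes.

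**Figure D5:**
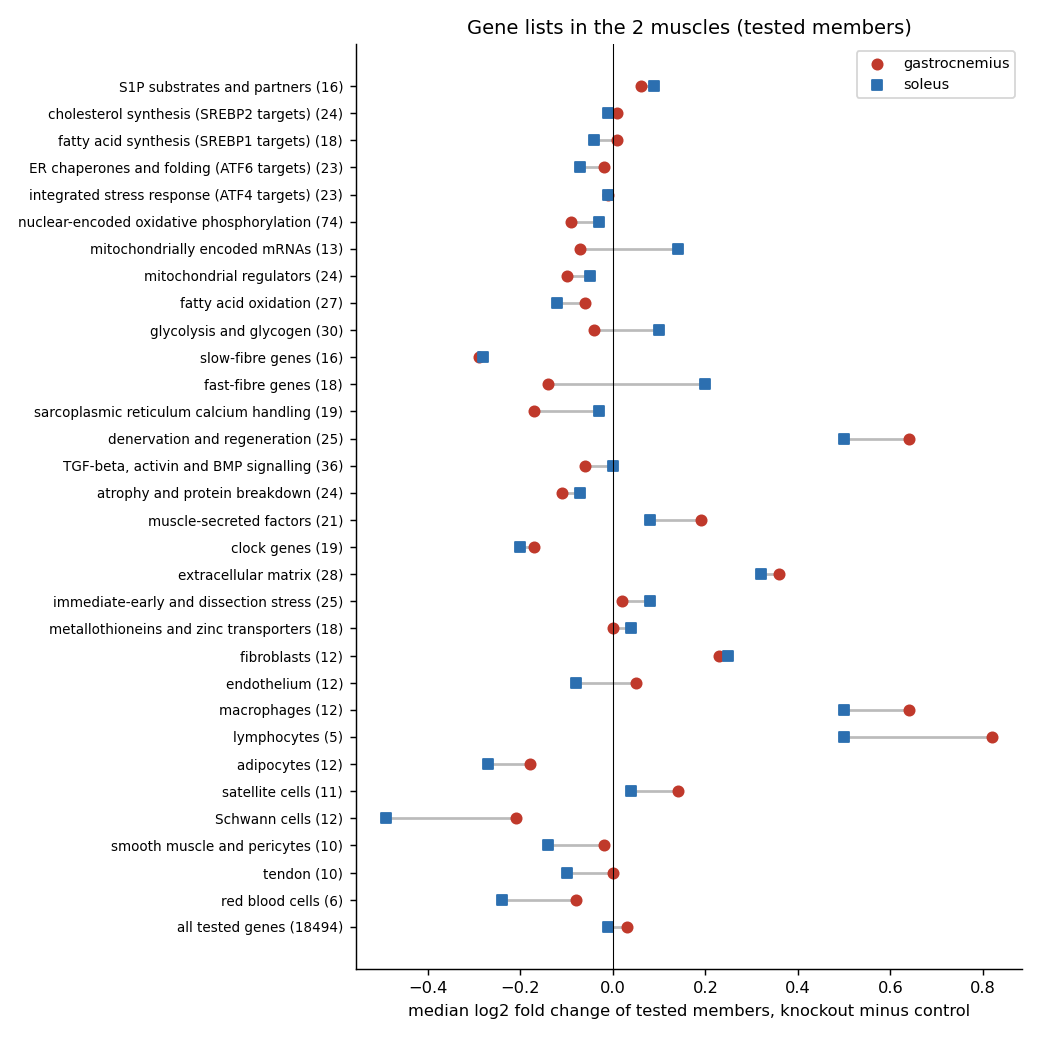
Median log2 fold change, knockout minus control, of the tested members of 31 gene lists and of all tested genes, in gastrocnemius (circles) and soleus (squares); the number tested stands in parentheses and no list was tested as a set. The denervation, matrix, macrophage and lymphocyte lists lie right of 0 in both muscles, slow-fibre and clock genes left of 0 in both, and fast-fibre and mitochondrially encoded genes on opposite sides.

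Genes of the extracellular matrix and of macrophages were higher by estimate in both muscles, with none called. The 28 matrix genes had medians of 0.36 and 0.32, with positive estimates for 28 and 27 of 28. The 12 macrophage markers had medians of 0.64 and 0.50, with positive estimates for 11 of 12 in each muscle. The difference test called 0 genes of either list by edgeR, with 0 at an unadjusted p under 0.05, against 5.4% of all tested genes. Single libraries weighed on these values: the summed macrophage markers were 308 CPM in gastrocnemius knockout 7 against 160 to 168 CPM in the other gastrocnemius knockouts and 119 to 171 CPM in controls. Soleus knockout 40 held 172 CPM against 96.5 to 117 CPM in the other soleus knockouts and 74.6 to 123 CPM in controls. Without gastrocnemius knockout 7 the gastrocnemius median was 0.16 for the matrix list and 0.26 for macrophages. Without soleus knockout 40 the soleus medians were 0.17 and 0.25. Gastrocnemius knockout 7 and soleus knockout 40 hold the same place in the order of title numbers, and whether they came from 1 mouse was not tested. Gastrocnemius knockout 7 and soleus knockout 40 also held the highest Chrng, Chrna1 and Sln of their groups, and the part of these cell types in the receptor and calcium gene results was not tested. Without gastrocnemius knockout 7, 19 genes were called in both muscles, and all 14 were among them. Without soleus knockout 40, 9 genes were called in both muscles, and 7 of the 14 were among them.
Schwann cell markers had medians of -0.21 and -0.49, clock genes of -0.17 and -0.20, and satellite cell markers of 0.14 and 0.04. Over the 18 leave-outs the Schwann cell medians ran from -0.35 to -0.06 in gastrocnemius, the extremes being without knockout 2 and control 3, and from -0.66 to -0.30 in soleus, the latter without control 38. The satellite cell medians ran from 0.09 (without control 5) to 0.22 (without control 3) in gastrocnemius and from -0.02 (without control 37 or 41) to 0.16 (without control 34) in soleus, a change of sign. The clock gene median in soleus was -0.11 without soleus knockout 39. In gastrocnemius 2 of 19 tested clock genes were called lower, among them Ciart, which fell by 0.86. Of 11 satellite cell genes 1 was called higher, Myf5, by 0.99, and of 12 Schwann cell genes 0 were called. In soleus 0 were called, and 0 by the difference test in edgeR. That test had 1 clock gene, 2 satellite cell genes and 0 Schwann cell genes at an unadjusted p under 0.05. The shares over all tested genes were 3.57% called in gastrocnemius, 0.151% called in soleus and 5.4% with a difference at an unadjusted p under 0.05.

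A set of 14 genes was called in soleus but not in gastrocnemius, and the difference test called 0 of them by edgeR; they were named after their values were seen. Rspo3, a secreted enhancer of Wnt signalling (chromosome 10, 29453109 to 29535867, minus strand), held 10.6, 9.73, 11.7, 9.24 and 9.88 CPM in soleus controls and 4.36, 5.45, 2.95 and 5.33 CPM in knockouts. In gastrocnemius it held 0.679 to 1.22 CPM in controls and 0.342 to 0.800 CPM in knockouts. It fell by 1.18 (SE 0.18, adjusted p = 0.00542) in soleus, and its difference of -0.44 (95% interval -1.03 to 0.15) was not called. Cp, which encodes the ferroxidase ceruloplasmin, held 25.5, 27.7, 29.6, 27.9 and 24.1 CPM in soleus controls and 16.7, 21.6, 13.4 and 14.5 CPM in knockouts. It fell by 0.70 (SE 0.11) in soleus and was level in gastrocnemius, at 10.9 to 13.7 and 11.7 to 12.6 CPM. The Cp difference of -0.65 (95% interval -0.95 to -0.35) had an adjusted p of 0.209, and 0.0281 without soleus knockout 39; Hps3 on the opposite strand overlaps the gene.
Frzb, a secreted Wnt antagonist, rose in soleus from 2.98 to 5.38 CPM in controls to 7.73 to 8.99 CPM in knockouts (0.92, SE 0.16), and Eda2r, a receptor of the tumour necrosis factor family, rose by 0.87 (SE 0.15). Wnt16, a Wnt ligand, fell by 3.05 (SE 0.55) in soleus, from 0.757 to 4.10 CPM to 0.150 to 0.389 CPM. The other 9 were Hnmt (-1.34) and Dcakd (-0.55), which fell, and Mtmr11 (0.72), Tnfrsf23 (1.19), Chst3 (0.90), Atp11a (0.34), Fgf11 (0.93), Rian (1.2) and Carhsp1 (0.64), which rose. Of the 14, Rspo3 kept its soleus call under every alternative run. Cp and Frzb kept theirs in all 18 leave-outs and lost them when soleus was fitted on its own 9 libraries (adjusted p 0.0830 and 0.0723), and Cp also without both soleus control 37 and soleus knockout 42 (adjusted p = 0.0653). The other 11 lost their soleus calls in 4 (Eda2r) to 10 (Carhsp1) of the leave-outs, Wnt16 in 5 (adjusted p up to 0.166), and also when soleus was fitted on its own. Calls in soleus numbered 15, 15, 15 and 13 without soleus controls 34, 36 and 37 and knockout 40. They numbered 49 and 50 without gastrocnemius knockouts 2 and 7, and 65 and 56 without soleus knockouts 35 and 39. Calls in gastrocnemius numbered 432, 423, 351 and 424 without gastrocnemius controls 1, 4, 5 and 8, and 328 and 341 without gastrocnemius knockouts 6 and 7. The gastrocnemius calls split into 171 higher and 157 lower without knockout 6. Without knockout 7 they split into 123 higher and 218 lower, so more of the higher calls were lost. The share of gastrocnemius-called genes with the same sign in soleus ranged from 79.9% to 90.6% over the 18 leave-outs. With RLE scaling the gastrocnemius calls split into 279 higher and 514 lower, against 320 and 340 with TMM. DESeq2 gave 520 higher and 866 lower.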

How the data were processed

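RNA-seq was compared in 18 mouse muscle libraries, grouped by the muscle and genotype in their titles (5 control and 4 knockout libraries per muscle; the series text states 4 per group). Total RNA was depleted of ribosomal RNA, per the labels' protocols. The authors deposited whole-number counts per gene, with CPM and RPKM columns beside them. The deposited CPM and RPKM recomputed from the deposited counts, and only counts were used. The build was GRCm38 and the tools were featureCounts 1.4.6-p5, STAR 2.5.1a, Subread and bcl2fastq, per the submitters' processing notes. Which annotation release and strand setting were used, and what became of multi-mapping reads, is not stated in these sources, so genes that share reads with relatives or overlapping genes are uncertain. Of 41388 features, 97.3% took a symbol from a GENCODE annotation of GRCm38; coordinates are the files' own.

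Counts of all libraries entered 1 edgeR 4.0.16 fit in R 4.3.3 (TMM, filterByExpr with a minimum count of 10 and total of 15, robust quasi-likelihood F-test, Benjamini-Hochberg over 18494 genes, threshold 0.05), with 3 contrasts: knockout minus control in each muscle, and the soleus effect minus the gastrocnemius effect. The fit was tested on simulated counts of independently drawn libraries, with 200 genes changed 2-fold or more in gastrocnemius alone. That run does not cover smaller changes, changed genes at low levels, outlying libraries or mice shared between muscles. Levels are CPM on TMM-scaled totals. Fold changes are log2 values with SE, and 95% intervals of them are not adjusted for the number of genes. The intervals of fold changes use the normal distribution and are narrower than the F-test implies. Such an interval can therefore exclude 0 where the unadjusted p of the F-test is above 0.05. Library totals were 39.0 to 78.2 M; intervals of ratios are exact, and with the floor of 3 counts over a group they cover counting error only. No replicate pair was near sampling noise (17.75 to 125.07 chi-square units per gene). Alternatives were RLE scaling, TMM within each muscle, DESeq2 1.42.0, limma voom 3.58.1, other filters, a fit per muscle, each library left out, and, chosen after seeing the data, 2 soleus libraries with low Myh4 left out together.

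Members and gene lists were chosen with earlier results of these data known. Text names genes called by the difference test whose log2 CPM averaged 1 or more and whose groups were separate in a muscle, genes called in both muscles without overlap in either, a fixed set (Mbtps1, Sox14, Sln, Actc1, Ostn, Mstn, Mss51, Musk, Chrng, Chrna1, Myl2, Srebf1, Cd28), and up to 4 per list by the smallest p of the difference; list genes called in a muscle and others are named as examples after their values were seen. Some genes counted among the calls are not reported here by name. Promoter sequences are from RefSeq.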

Additional observations from a re-analysis of the deposited data

Results flagged for a closer look

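The difference between the muscles' knockout effects passed the edgeR test for 13 genes, with log2 differences, soleus minus gastrocnemius, of 1.82 for Cd28, 0.69 for Xpr1, 0.70 for Cbfb, 1.12 for Bex1, 2.61 for C2cd4c, 1.51 for Itga4, 2.28 for Otog, 0.85 for Ttll7, 2.26 for Ostn, 0.57 for Pcx, -1.44 for Lrtm1 and -0.83 for Mrvi1. For Slc4a10 the fitted difference was 6.59, a value that depends on the prior count because soleus controls held 0 counts, and it is no bound.

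Single libraries lay far from the rest of their group in 7 of 104 groups checked (26 genes in 4 groups), where chance alone gives about 1 in 20, or 5.2 groups. Soleus knockout 40 had the highest Actc1 of its group (84.3 CPM) and the lowest Myl2 (568 CPM). Gastrocnemius knockout 7 had the lowest Ostn, at 1.65 CPM. Soleus control 34 held the only Sox14 count among controls, at 0.0162 CPM. Soleus control 41 had the highest Srebf1 at 31.3 CPM, soleus knockout 42 the highest Tiam1 at 10.8 CPM, and soleus knockout 35 the lowest Tspan13 at 22.8 CPM.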

How the results depend on the processing

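Counts of called genes moved with the tool and with single libraries. DESeq2 called 52 differences, 61 genes in both muscles, 1386 in gastrocnemius and 137 in soleus, with all 13 differences among its calls. Limma voom called 7 differences, 53 soleus genes and 20 genes in both muscles, 10 of them among the 14. Without the low-count filter 22 genes were called in both muscles and 52 in soleus. Fits of each muscle on its own 9 libraries called 7 genes in both, 5 of them among the 14, and 10 in soleus. Leaving out soleus control 37 and soleus knockout 42 gave 2 differences, 7 genes in both and 16 in soleus. With each library left out in turn, differences numbered 2 to 23, genes in both muscles 8 to 34, gastrocnemius calls 328 to 899 and soleus calls 13 to 65. Under RLE scaling, TMM within each muscle and a mean log2 CPM of at least 0, the counts of differences, of genes in both muscles and of calls per muscle, not split by direction, were within 1.5 times those reported; split by direction, RLE gave 514 lower gastrocnemius genes against 340, and the last filter 7 positive differences against 11.

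Differences near 0 that no setting called changed sign. Over the leave-outs they ranged from -0.05 to 0.21 for Cacnb4, -0.34 to 0.17 for Cda, -0.40 to 0.40 for Chrng, -0.17 to 0.00 for Ehd4, -1.97 to 0.07 for Fam71e2 and -0.15 to 0.04 for Tspan13. Limma voom gave -0.07 for Chrng and 1.47 for Fam71e2, and leaving out soleus control 37 and soleus knockout 42 gave 0.11 for Cda and 0.02 for Maats1. The cause was not tested. Depth limits the genes at or near 0 counts in a group (Sox14, Slc4a10, Fam71e2), whose fitted values depend on the prior count. No paired analysis was possible because the groups share no replicate number and the labels tie no soleus library to a gastrocnemius library; the genotypes run in the same order along both muscles' title numbers, so libraries may share mice, which was not tested.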
